A study of Mus musculus with 8 samples.

Results

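Metabotropic glutamate receptors are the G protein-coupled receptors for glutamate, and the Homer proteins are scaffolds of the postsynaptic density that tie some of them to intracellular calcium stores. The genes described here are 8 of the 23983 genes tested: the receptors Grm5, Grm2, Grm3, Grm4, Grm7 and Grm8 and the scaffolds Homer2 and Homer3. They were taken by gene symbol from the authors' comparison table, and a symbol with more than 1 transcript cluster (the unit into which the array's probes for a gene are summarised) was read from its brightest one, by the mean of the 8 arrays. Other genes of the family were not analysed here. All 8 genes had a tested value, since no filter on dim signals was applied.

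The receptors fall into groups by sequence and coupling. Group I, here Grm5, couples to Gq and phospholipase C, acts mostly on the postsynaptic side and binds Homer through its long intracellular tail. Group II (Grm2 and Grm3) and group III (Grm4, Grm7 and Grm8) couple to Gi/o, lower cyclic AMP and restrain transmitter release. In cortex Grm2 is neuronal, Grm3 is made by astrocytes as well as neurons, and Grm7 sits at the active zone of presynaptic terminals. Grm4 and Homer3 are best known from the cerebellum.

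Prefrontal cortex, dissected at the cingulate cortex, came from 12-week-old male mice at rest, 4 of them labelled wild-type and 4 labelled Mll1 Ko, with 1 array per mouse. All mice had been kept alone for a week before dissection. The labels call the colony Mll1 mutant mice and the series title speaks of neuronal Kmt2a/Mll1, but neither gives the strain, the allele, the part of the gene deleted or the driver of a recombinase, so which cells lost the gene is not known from them. Kmt2a (Mll1) is a methyltransferase for lysine 4 of histone H3. Its own signal was not lower but higher on the Mll1 Ko arrays, at 10.29 to 10.42 against 9.94 to 10.13 log2, and since 1 cluster covers the gene this does not check the labels. Groups are named as labelled, and every direction below rests on the labels.

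Values are RMA log2 signals, in which a difference of 1 is a doubling, and levels of different genes are not set against each other because their probes differ. Differences are Mll1 Ko minus wild-type from limma, with a standard error (SE). Calls use a Benjamini-Hochberg adjusted p over all 23983 genes and a threshold of 0.05. Array medians were 8.04 to 8.08 on wild-type and 7.99 to 8 on Mll1 Ko arrays, without overlap, and centring each array on its median changed the genes called over the whole table from 1236 higher and 1364 lower to 2845 and 482. The first principal component (42.7% of the variance) separated the genotypes, at -20.33 to -7.516 on wild-type and 9.191 to 13.62 on Mll1 Ko arrays. Within wild-type, replicate 1 stood apart on it, at -20.33 against -8.189 to -7.516 on the other wild-type arrays. On the second component wild-type replicate 4 stood apart, at -19.24 against -1.008 to 8.116 on the other arrays. The number of arrays limits the precision, and in whole tissue fewer cells of a type and less RNA per cell cannot be told apart.

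Marker genes of the tissue were compared between genotypes only, and since probes differ their levels do not show how much of each cell type was present. None of 4 pan-neuronal markers passed the test (list mean 12.53 to 12.62 on wild-type and 12.58 to 12.66 on Mll1 Ko arrays), and none of 5 cerebellar neuron markers did (7.69 to 7.92 and 7.63 to 7.75). Striatal neuron markers gave signal too, such as Drd1 at 10.17 to 10.31 on wild-type and 10.21 to 10.42 on Mll1 Ko arrays, and neighbouring striatum in the dissection was not tested. Of 6 excitatory cortical neuron markers 2 fell, among them Tbr1 (-0.46 log2), where 5.69% of all genes were called lower. The list mean ranged from 10.97 to 11.12 on wild-type and from 10.72 to 10.85 on Mll1 Ko arrays. The part of this shift in the receptor results below was not tested.

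The sequence just before the transcription start is shown for Grm2 and Grm3, the group II pair. In the test below Grm2 passed and Grm3 did not, and whether they differed from each other was not tested. Kmt2a carries a domain known to bind unmethylated CG dinucleotides. Any part of CG content in the results was not tested. The windows are the 250 bases upstream of the start site in RefSeq (GRCm38.p6), read 5′ to 3′ on the minus strand, with each CG in capitals.
Grm2, chr9:106656110-106656359: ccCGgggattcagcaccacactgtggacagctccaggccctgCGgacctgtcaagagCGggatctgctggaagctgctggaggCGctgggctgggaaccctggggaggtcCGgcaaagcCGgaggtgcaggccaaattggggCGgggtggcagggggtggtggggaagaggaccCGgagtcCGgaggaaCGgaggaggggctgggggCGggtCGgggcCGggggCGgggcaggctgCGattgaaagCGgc
Grm3, chr5:9725353-9725602: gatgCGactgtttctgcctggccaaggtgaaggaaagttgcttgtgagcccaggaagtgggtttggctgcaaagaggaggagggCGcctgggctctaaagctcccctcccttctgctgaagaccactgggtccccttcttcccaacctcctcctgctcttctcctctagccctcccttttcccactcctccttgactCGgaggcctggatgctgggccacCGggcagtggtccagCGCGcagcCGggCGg
The Grm2 window held 16 CG and that of Grm3 held 8. Among 32851 windows of all genes the median was 6, with at least 16 CG in 25.4% and at least 8 in 43% of windows. RefSeq windows were found for 6 of the 8 genes, and Grm5 and Grm4 were the ones without. Homer2 had the most CG, with 40 in the window of 1 start site and 3 in that of another, and Grm8 had 29, 8 and 2 at its 3 start sites. These counts describe the windows and no binding was measured.

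The main comparison asked whether the signal of these genes differed between the labelled genotypes. Grm2, the group II autoreceptor, fell, with a signal 1.15-fold higher in wild-type, and Grm5, the group I receptor, rose 1.14-fold. The other 6 genes did not pass the test. Thus 1 of 8 genes was called higher and 1 of 8 lower. Over all genes tested 5.15% were called higher and 5.69% lower, so with 8 genes neither count sets the family apart. The median difference of the 8 genes was -0.0075 log2 and that of all genes -0.0325.

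**Figure D1:**
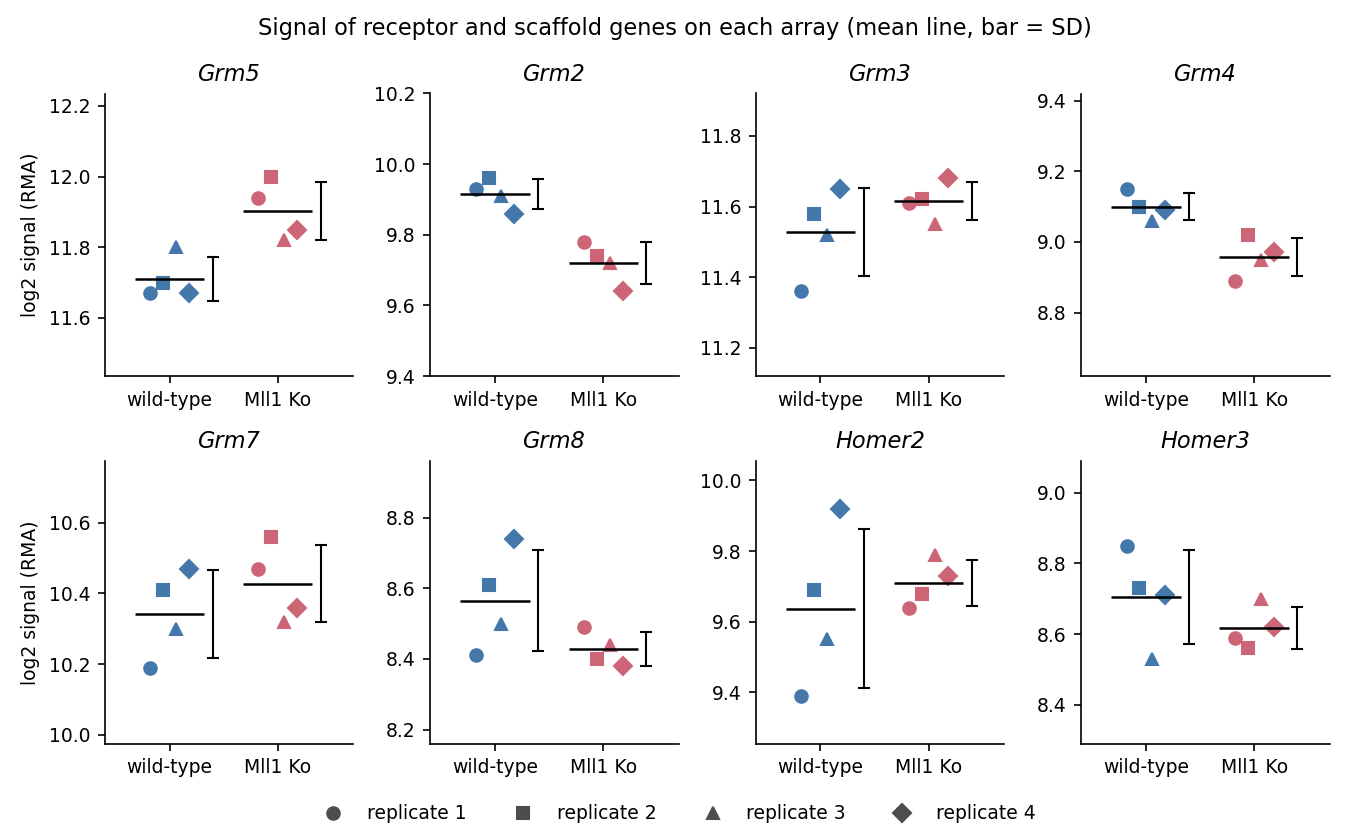
RMA log2 signal (y axis, each panel spanning 0.8 log2) of the 8 genes on the 4 wild-type (blue) and 4 Mll1 Ko (red) arrays, with the replicate number as marker shape, the mean as a line and the SD as a bar. Grm5, Grm2 and Grm4 have groups that do not overlap, and in Grm3, Grm7, Grm8 and Homer2 wild-type replicate 1 is the lowest and wild-type replicate 4 the highest of the wild-type arrays.

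Grm5 encodes mGlu5, the main group I receptor of forebrain neurons, which also occurs in astrocytes. Its signal was 11.67, 11.70, 11.80 and 11.67 on wild-type arrays 1 to 4 and 11.94, 12.00, 11.82 and 11.85 on Mll1 Ko arrays 1 to 4. The lowest Mll1 Ko array stood only 0.02 above the highest wild-type array, wild-type replicate 3. The means were 11.71 ± 0.06 and 11.90 ± 0.08 (SD, n = 4 and 4). The difference of 0.19 ± 0.06 log2 (SE), a signal ratio of 1.14, passed narrowly (limma, adjusted p = 0.0471), and an exact two-sided permutation test gave 0.0286, the smallest p that 4 against 4 allows.

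The Grm5 call depended on the scaling. After quantile normalization the difference was 0.14 (limma, adjusted p = 0.213) and after cyclic loess 0.12 (adjusted p = 0.244). Genes as bright as Grm5 tended to rise in the deposited values: in the brightest of 10 signal classes the median difference was 0.065 and 13.9% of 2399 genes were called higher. The call also ended when any 1 array other than wild-type replicate 3 was left out (differences of 0.16 to 0.22, adjusted p from 0.0416 to 0.124 over the 8 arrays left out in turn), and without both wild-type arrays that stood apart, replicates 1 and 4, it was 0.15 (adjusted p = 0.188). In the authors' deposited table Grm5 had a fold of 1.17, higher in the knockout, and an FDR p-value of 0.0887.

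Grm2 encodes mGlu2, a presynaptic receptor that reduces glutamate release. Its signal was 9.93, 9.96, 9.91 and 9.86 on wild-type arrays 1 to 4 and 9.78, 9.74, 9.72 and 9.64 on Mll1 Ko arrays 1 to 4. Every Mll1 Ko array lay below every wild-type array. The means were 9.92 ± 0.04 and 9.72 ± 0.06 (SD, n = 4 and 4), and the pooled SD of 0.0512 was smaller than that of most genes, for which the median was 0.0854. The difference was -0.20 ± 0.05 log2 (SE), or 1.15-fold higher in wild-type (limma, adjusted p = 0.0315, exact permutation p = 0.0286).

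Grm2 moved against the genes of like signal. In its signal class, the ninth of 10, the median difference was 0.0675, and 2.25% of 2398 genes were called lower while 11.2% were called higher. After quantile normalization the difference grew to -0.25 (limma, adjusted p = 0.017), and after cyclic loess it was also -0.25 (adjusted p = 0.0135). Centring each array on its median shrank it to -0.13 and ended the call (adjusted p = 0.0898). With 1 array left out in turn the difference stayed between -0.22 and -0.17, but the call held in only 3 of 8 cases, those without wild-type replicate 3, wild-type replicate 4 or Mll1 Ko replicate 1 (adjusted p from 0.0254 to 0.0814 over the 8). Without wild-type replicates 1 and 4 it was -0.22 (adjusted p = 0.0648). In the authors' deposited table Grm2 had a fold of 1.14, higher in wild-type, and an FDR p-value of 0.0483.

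Grm3, the other group II gene, encodes mGlu3. Its signal was 11.36, 11.58, 11.52 and 11.65 on wild-type arrays 1 to 4 and 11.61, 11.62, 11.55 and 11.68 on Mll1 Ko arrays 1 to 4. The groups overlapped, and wild-type replicate 1 was the lowest of all arrays. The difference was 0.09 ± 0.06 log2 (SE, 95% interval -0.05 to 0.23, limma, adjusted p = 0.344). The interval of Grm2 was -0.30 to -0.09, and whether the pair differed from each other was not tested. Astrocytes are a known source of Grm3, and 0 of 7 astrocyte markers passed the test, with a list mean of 10.06 to 10.11 on wild-type and 10.07 to 10.15 on Mll1 Ko arrays.

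Grm4 encodes mGlu4, a group III receptor of axon terminals. Its signal was 9.15, 9.10, 9.06 and 9.09 on wild-type arrays 1 to 4 and 8.89, 9.02, 8.95 and 8.97 on Mll1 Ko arrays 1 to 4. The groups did not overlap, with every Mll1 Ko array below every wild-type array. The difference of -0.14 ± 0.05 log2 (SE) did not pass (limma, adjusted p = 0.0707, exact permutation p = 0.0286), and its 95% interval ran from -0.25 to -0.04. It passed only when arrays were weighted by quality (adjusted p = 0.0473). In the authors' deposited table its FDR p-value was 0.0698.

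Grm5 was thus 1 of 8 genes whose Mll1 Ko values all lay above wild-type, and Grm2 and Grm4 were 2 of 8 whose values all lay below. Over all genes 9.47% were separated upward and 10.1% downward. The downward count of 2 in 8 is above its share, but with 8 genes neither count sets the family apart.

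The remaining group III genes did not pass. Grm7, which encodes mGlu7, had 10.19, 10.41, 10.30 and 10.47 on wild-type arrays 1 to 4 and 10.47, 10.56, 10.32 and 10.36 on Mll1 Ko arrays 1 to 4, with a difference of 0.09 ± 0.07 log2 (SE, 95% interval -0.07 to 0.24, limma, adjusted p = 0.417). Grm8, which encodes mGlu8, had 8.41, 8.61, 8.50 and 8.74 on wild-type arrays 1 to 4 and 8.49, 8.40, 8.44 and 8.38 on Mll1 Ko arrays 1 to 4, with a difference of -0.14 ± 0.07 (95% interval -0.29 to 0.01, adjusted p = 0.179). Both pairs of groups overlapped. For Grm8 only wild-type replicate 1 lay within the Mll1 Ko range, and leaving it out gave a difference of -0.19 (adjusted p = 0.101).

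**Figure D2:**
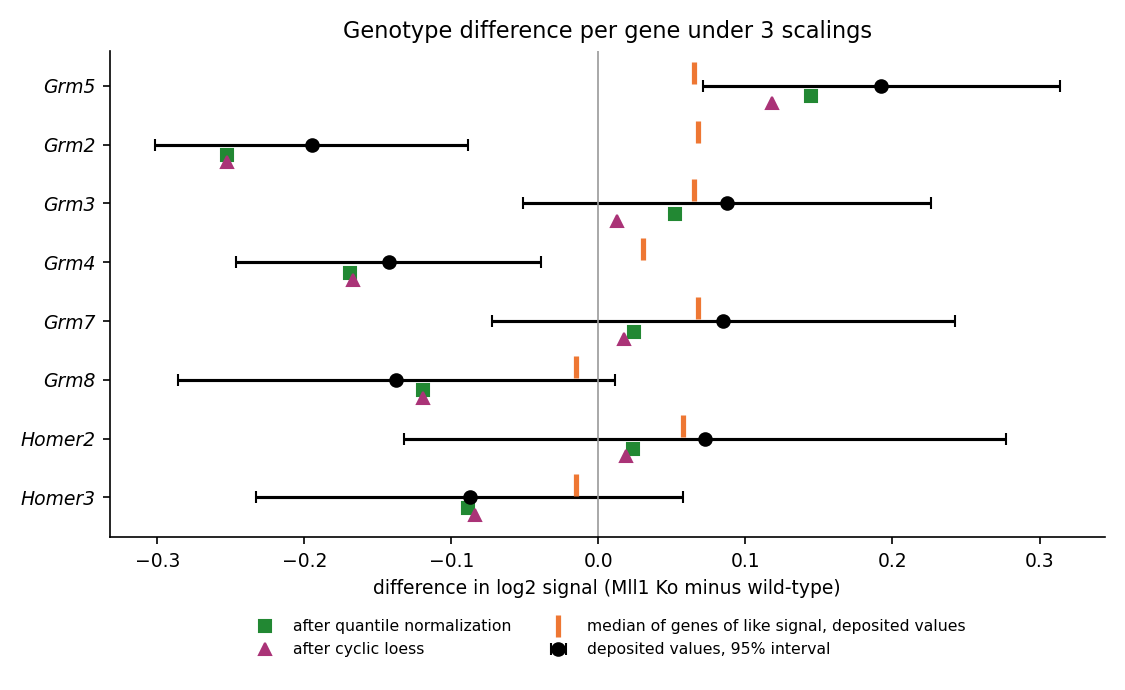
Difference in log2 signal, Mll1 Ko minus wild-type (x axis), for the 8 genes, as black points with 95% intervals from limma on the deposited values. Green squares and purple triangles give the difference after quantile normalization and cyclic loess. Orange ticks give the median difference of genes in the same signal class, in the deposited values only. Grm2 and Grm4 lie below their ticks under each of the 3 scalings, and Grm5 moves from 0.19 to 0.14 and 0.12.

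Homer2 and Homer3 encode scaffolds with an EVH1 domain, which binds proline-rich motifs in group I receptors, inositol trisphosphate receptors and Shank proteins. Homer3 had 8.85, 8.73, 8.53 and 8.71 on wild-type arrays 1 to 4 and 8.59, 8.56, 8.70 and 8.62 on Mll1 Ko arrays 1 to 4. Wild-type replicate 3 was the lowest array and wild-type replicate 1 the highest, so the Mll1 Ko values lay inside the wild-type range. The difference was -0.09 ± 0.07 log2 (SE, 95% interval -0.23 to 0.06, limma, adjusted p = 0.366).

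Homer2 had 2 transcript clusters with 1 gene symbol. The brighter cluster, 10565152, had 9.39, 9.69, 9.55 and 9.92 on wild-type arrays 1 to 4 and 9.64, 9.68, 9.79 and 9.73 on Mll1 Ko arrays 1 to 4. The other, 10565156, had 9.67, 9.51, 9.60 and 9.36 on wild-type arrays 1 to 4 and 9.52, 9.50, 9.59 and 9.45 on Mll1 Ko arrays 1 to 4. Among the wild-type arrays the clusters ran in exactly opposite order, with wild-type replicate 1 lowest in the first and highest in the second and wild-type replicate 4 the reverse, whereas on the Mll1 Ko arrays replicate 3 was highest in both. Neither passed the test: the differences were 0.07 ± 0.09 (SE, limma, adjusted p = 0.602 over genes) and -0.02 ± 0.07 (adjusted p = 0.854 over all 25400 clusters with 1 symbol). Without wild-type replicate 1 the first turned to -0.01.

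**Figure D3:**
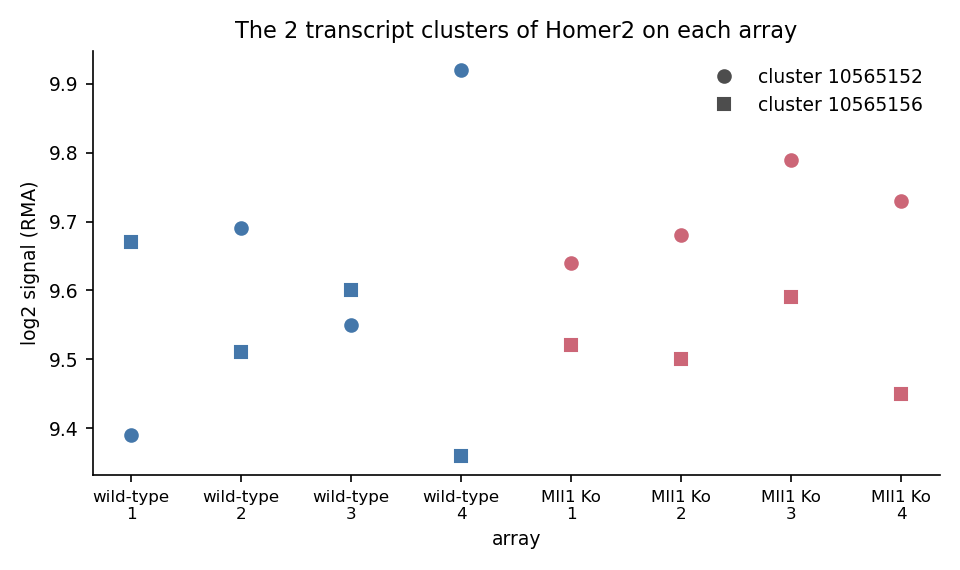
RMA log2 signal (y axis) of the 2 Homer2 transcript clusters, 10565152 (circles) and 10565156 (squares), on each of the 4 wild-type (blue) and 4 Mll1 Ko (red) arrays. Among wild-type arrays replicate 1 is lowest in the first cluster (9.39) and highest in the second (9.67), and replicate 4 is highest in the first (9.92) and lowest in the second (9.36).

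Some of the genes shared an order of the wild-type arrays. In Grm3, Grm7, Grm8 and Homer2 wild-type replicate 1 was the lowest and wild-type replicate 4 the highest wild-type array, a pattern that 11.9% of all genes had and that was noticed after the values were seen. These are the arrays that stood apart on the principal components. Wild-type replicate 1 also had the highest signal of Ttr, a choroid plexus marker, at 9.35 against 7.16 to 7.21 on the other wild-type arrays and 6.94 to 7.72 on Mll1 Ko arrays, and the part of this in the receptor results was not tested. Deviations from the genotype mean over the 8 arrays correlated between Grm8 and Homer2 (Pearson r = 0.874), Grm3 and Homer2 (0.802), Grm3 and Grm8 (0.755) and Grm3 and Grm7 (0.723), as a description of points that share arrays. These genes were picked for their shared wild-type order, so the correlations largely repeat it. Other pairs ran against each other, such as Grm5 and Homer3 (-0.793) and Grm3 and Homer3 (-0.45). Of the 8 genes 5 had a larger SD in wild-type than in Mll1 Ko, against 64.7% of all genes. Homer2 had the largest pooled SD of the 8, at 0.165, and Grm4 the smallest, at 0.0463.

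The genes whose deviations were most like those of Grm2 over the 8 arrays were Lrriq1 (Pearson r = 0.988), Rpl14 (0.982) and Cyp3a13 (0.981), and those most like Grm5 were Arid2 (0.988), Riok3 (0.978) and Zbtb37 (0.963). These are the highest of 19153 genes compared, and such values are easily reached with so few arrays and so many genes. None of them is a glutamate receptor or Homer gene.

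**Figure D4:**
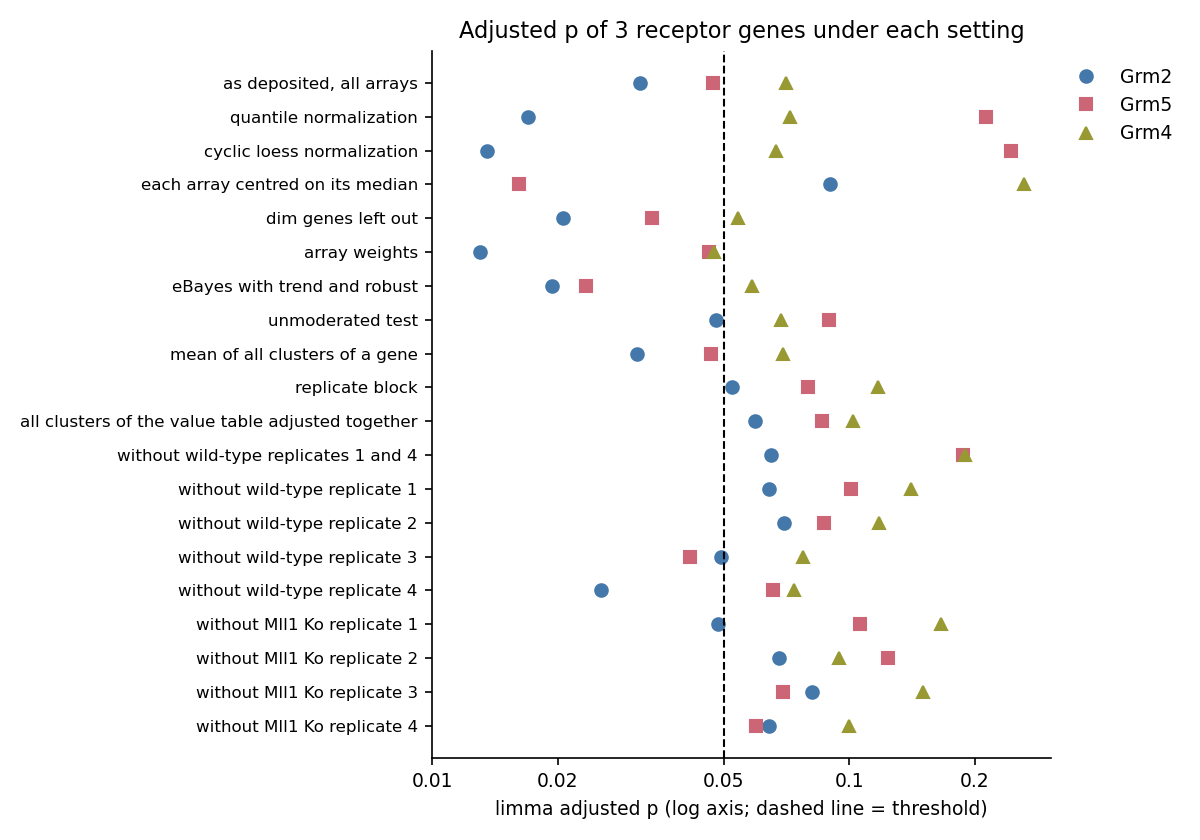
limma adjusted p (x axis, log scale, dashed line at 0.05) of Grm2 (blue circles), Grm5 (red squares) and Grm4 (olive triangles) with the deposited values of all arrays and under 19 other settings (y axis). Grm2 passes in 10 of the 19, Grm5 in 6 and Grm4 in 1.

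Signalling partners were examined in 5 lists with 89 tested genes, of which 8 were called higher and 5 lower. That is 8.99% and 5.62%, against 5.15% and 5.69% of all genes. After quantile normalization 5 were higher and 7 lower (5.62% and 7.87%, against 2.86% and 1.58% of all genes). The median difference of the 89 genes was 0.005 log2 in the deposited values and -0.03 after quantile normalization. Without wild-type replicates 1 and 4 the partners called higher and lower numbered 3 and 6 of 89. In that setting 424 and 395 of all 23983 genes were called higher and lower.

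Downstream of group I receptors, 3 of 19 genes of the Gq pathway fell and 1 rose, where 5.69% of all genes were called lower and 5.15% higher. Plcb4, a phospholipase C that cleaves membrane phosphoinositides, fell from 9.94, 10.08, 10.14 and 9.98 on wild-type arrays 1 to 4 to 9.75, 9.71, 9.65 and 9.59 on Mll1 Ko arrays 1 to 4, a difference of -0.36 ± 0.06 log2 (SE, limma, adjusted p = 0.00567). Mgll, which breaks down the endocannabinoid 2-arachidonoylglycerol, fell by 0.30 ± 0.05 (adjusted p = 0.00582), from 10.88 to 11.04 on wild-type to 10.65 to 10.69 on Mll1 Ko arrays. The regulators of G protein signalling, which speed the shut-off of G proteins, went in opposite directions. Rgs4 fell by 0.31 ± 0.05 (adjusted p = 0.00773) and Rgs2, which acts on Gq, rose by 0.43 ± 0.08 (adjusted p = 0.011). None of the 4 overlapped between groups, which adds little because they were named for passing the test. Dagla and Daglb of this list did not overlap either and were not called. Of all genes 9.47% were separated upward and 10.1% downward. All 4 kept their calls after quantile normalization and with any 1 array left out, but Rgs2 did not pass an unmoderated test (adjusted p = 0.0648). The list median was -0.08.

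Of 19 Gi/o pathway genes, which serve group II and III receptors, 2 rose and 1 fell. Among all genes 5.15% were called higher and 5.69% lower, so with 19 genes these counts do not set the list apart. The calcium-stimulated adenylyl cyclases split, with Adcy8 rising by 0.34 ± 0.06 log2 (SE, limma, adjusted p = 0.0116) and Adcy1 at -0.21 ± 0.05 (adjusted p = 0.0339). Adcy8 values were 8.99 to 9.06 on wild-type and 9.22 to 9.53 on Mll1 Ko arrays, and those of Adcy1 were 11.06 to 11.23 and 10.92 to 11.03. Gnai2, an inhibitory G protein alpha subunit, rose by 0.19 ± 0.05 (adjusted p = 0.0315), a call that ended after quantile normalization (adjusted p = 0.141). With 1 array left out, Gnai2 passed only without wild-type replicate 3 or 4 and Adcy1 only without wild-type replicate 1 or 4, over adjusted p of 0.0328 to 0.0814 and 0.0237 to 0.0856, while Adcy8 passed in all 8 cases. Over the 19 other settings Adcy8 passed in 17, and without wild-type replicates 1 and 4 its call ended. The list median was 0.035.

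Among 19 Homer-binding and receptor-interacting proteins 2 rose and none fell, where 5.15% of all genes were called higher and 5.69% lower. Grasp (tamalin), a scaffold of group I receptors, rose by 0.28 ± 0.07 log2 (SE, limma, adjusted p = 0.0345), and its partner Cyth2, an exchange factor for ARF proteins, by 0.19 ± 0.05 (adjusted p = 0.0381). Grasp lay at 9.53 to 9.84 on wild-type and 9.90 to 10.08 on Mll1 Ko arrays, so the groups did not overlap. Quantile normalization ended both calls, at 0.0825 for Grasp and 0.131 for Cyth2 (adjusted p). With 1 array left out, Grasp passed only without wild-type replicate 2, 3 or 4 and Cyth2 only without wild-type replicate 3, over adjusted p of 0.0365 to 0.0946 and 0.0466 to 0.109. The list median was 0.0675. Its genes had mean signals of 8.42 to 12.58, across signal classes with median differences of -0.015 to 0.0675. The part of signal level in the list median was not tested.

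In the group I translation and depression pathway 1 of 16 genes rose and 1 fell, near the 5.15% and 5.69% of all genes called higher and lower. Mapk3, the kinase ERK1, rose by 0.37 ± 0.06 log2 (SE, limma, adjusted p = 0.00458), from 10.91 to 10.99 on wild-type to 11.19 to 11.44 on Mll1 Ko arrays. Arc, a synaptic gene induced by activity and involved in AMPA receptor removal, fell by 0.57 ± 0.09 (adjusted p = 0.00573), from 10.57 to 10.84 down to 9.95 to 10.40. Both kept their calls after quantile normalization, but Arc did not pass an unmoderated test (adjusted p = 0.056). Of 16 glutamate transport and metabolism genes 2 rose and none fell, where 5.15% of all genes were called higher and 5.69% lower. With 16 genes these counts do not set the list apart. Slc17a6, the vesicular transporter VGLUT2, rose by 0.34 ± 0.06 (limma, adjusted p = 0.00848). Slc1a4, a neutral amino acid transporter, rose by 0.27 ± 0.06 (adjusted p = 0.0181). The Slc1a4 call ended without Mll1 Ko replicate 2 or 3 (adjusted p = 0.0515 and 0.0503). The medians of the last 2 lists were 0.015 and -0.03.

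**Figure D5:**
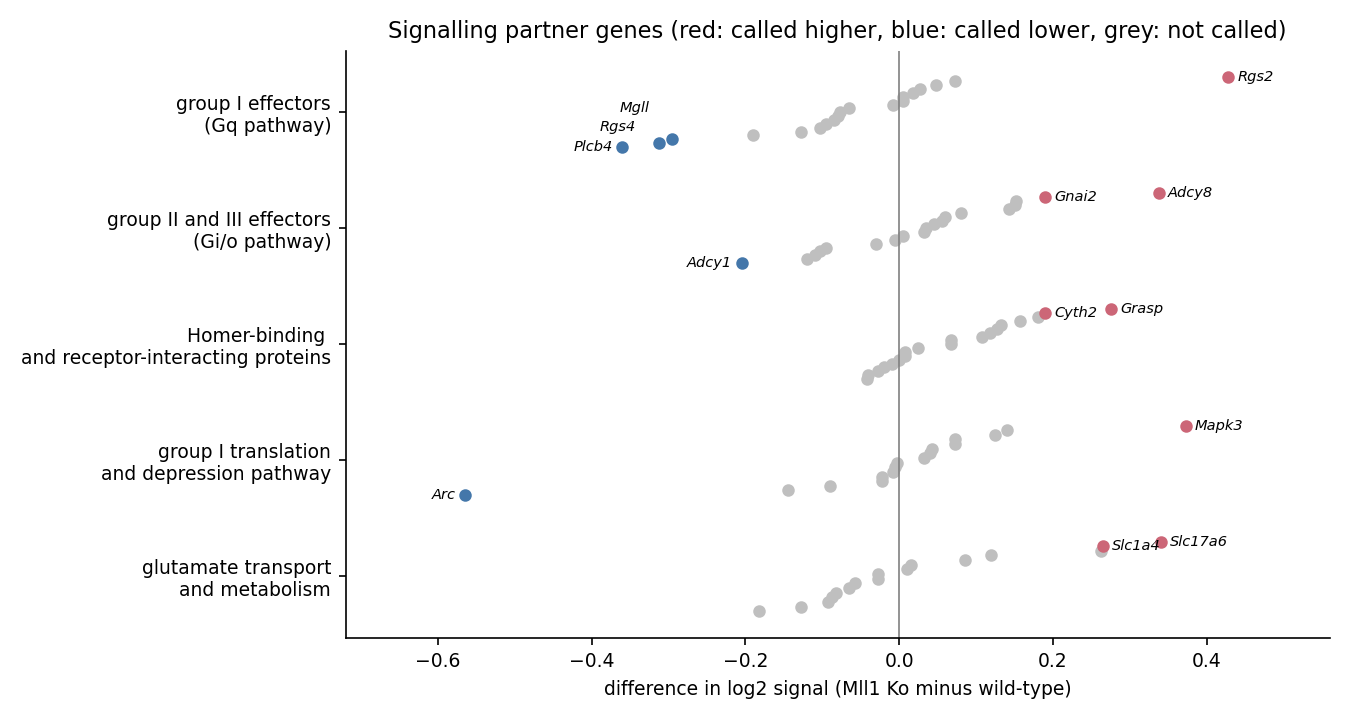
Difference in log2 signal, Mll1 Ko minus wild-type (x axis), of the 89 tested genes in 5 signalling partner lists (rows), 1 point per gene, ordered by size within a row. Red points are the 8 genes called higher, blue points the 5 called lower and grey points the rest; Rgs2 (0.43) and Arc (-0.57) are the outermost.

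Markers of other cells were read beside these results. Of 6 inhibitory neuron markers 1 fell (Gad1, -0.20 log2), of 7 striatal neuron markers 1 fell (Adora2a, -0.41), and of 4 oligodendrocyte precursor markers 1 rose (Pdgfra, 0.22). Among all genes 5.69% were called lower and 5.15% higher. List means overlapped between genotypes, at 10.16 to 10.30 and 10.15 to 10.25 for inhibitory, 10.40 to 10.57 and 10.34 to 10.55 for striatal and 9.18 to 9.21 and 9.19 to 9.28 for precursor markers, wild-type first. No marker passed among 6 of oligodendrocytes (11.40 to 11.52 and 11.27 to 11.50), 6 of microglia (8.77 to 8.90 and 8.87 to 8.96) or 6 of endothelial and mural cells (8.82 to 8.90 and 8.68 to 8.89). The 3 of choroid plexus and blood did not pass either (8.40 to 9.21 and 8.08 to 8.46, the highest mean being that of wild-type replicate 1 with its Ttr signal). Their part in the receptor and partner results was not tested.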

How the data were processed

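The authors' deposited log2 signals of 35556 transcript clusters on 8 arrays were used as given. The submitters' processing notes name Affymetrix Expression Console, RMA and Transcriptome Analysis Console 3.0, with no role or order, and the label protocol was that of the WT PLUS kit. Genome build, annotation and array model are not given in the sources used here. The authors' deposited comparison table (28944 clusters) supplied gene symbols. It also held bi-weight mean log2 signals, a signed linear fold stored as a score that is negative where knockout was higher, an ANOVA p-value and its FDR-adjusted p-value, as the file headers name them (per the file headers). Clusters with 1 symbol and 1 description (25400) were reduced to 23983 genes by the highest mean over all arrays.

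Differences were fitted with limma 3.58.1 in R 4.3.3 (lmFit, eBayes) on all genes, with no covariate and Benjamini-Hochberg adjustment. An exact two-sided permutation test over the 8 arrays was added for single genes. Members and lists were chosen with earlier results of these data known. Named partners are up to 5 per list that passed, by lowest p, and the 3 genes with the most similar deviations were named for each called receptor, leaving out predicted genes and small RNAs. The design text counts 4 mice per genotype, so arrays were taken as separate animals, and no array pair had equal values at more than 1339 clusters. The fit was tested on simulated data with 200 of 23983 genes changed. It recovered 40% of the changes of 0.25 log2 and 89% of the changes of 0.5 log2. In the data 1236 genes were called higher and 1364 lower, and the adjusted threshold is less strict where more genes change. These shares therefore do not give the sensitivity of the fit to the data. The receptor differences are smaller than 0.25, and a gene that did not pass is not shown to be unchanged. Same-numbered arrays of the genotypes did not deviate together (correlations of -0.008 to 0.024), so replicate numbers were not taken as pairs. Alternatives were other normalizations, centring, filtering, array weights, moderation, cluster choice, the extent of adjustment, a replicate block and arrays left out.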

Additional observations from a re-analysis of the deposited data

How the results depend on the processing

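All 8 genes kept the sign of their difference under the 19 alternatives except Homer2, which turned to -0.01 without wild-type replicate 1 (-0.01 to 0.167 over the arrays left out in turn). Grm2 did not pass after centring of each array (-0.134), with all clusters of the value table adjusted together (-0.195), with the replicate number as a block (-0.195, adjusted p = 0.0523) or without wild-type replicates 1 and 4 (-0.215), and with 1 array left out it ranged from -0.215 to -0.168. Grm5 did not pass after quantile normalization (0.145), cyclic loess (0.118), an unmoderated test, the replicate block (adjusted p = 0.0795) or adjustment over all clusters (each 0.193), nor without wild-type replicates 1 and 4 (0.153), and ranged from 0.16 to 0.223 with 1 array left out. Grm4 passed with array weights (-0.139).

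The members called higher numbered 0 under each setting that ended the Grm5 call, and 0 to 1 with 1 array left out. Those called lower numbered 0 under each setting that ended the Grm2 call, 2 with array weights, and 0 to 1 with 1 array left out. Partner genes called higher numbered 5 after quantile normalization, cyclic loess or adjustment over all clusters, 15 after centring, 4 with the unmoderated test, 3 without wild-type replicates 1 and 4, and 4 to 9 with 1 array left out, against 8. Those called lower numbered 11 after cyclic loess and 3 with the unmoderated test, against 5.

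Over all genes 1236 were higher and 1364 lower. The split was 686 and 379 after quantile normalization, 746 and 437 after cyclic loess, 2845 and 482 after centring, 552 and 384 with the unmoderated test, 494 and 348 with all clusters adjusted together, 799 and 759 with the replicate block, and 424 and 395 without wild-type replicates 1 and 4. With array weights 2469 were lower. With 1 array left out the counts ranged from 398 to 1506 higher and 313 to 1755 lower, lowest without Mll1 Ko replicate 3 and highest without wild-type replicate 4. The cause of these changes was not tested. Whether the replicate block rested on paired animals is not known from the labels. In deviations from the genotype mean 0 of 4 wild-type arrays correlated best with the Mll1 Ko array of the same number, which cannot settle it.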
